A study of Mus musculus with 10 samples.

Results

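The 10 genes described here encode amino acid transporters that are commonly listed with the transcription factor ATF4: Slc7a5, Slc3a2, Slc7a1, Slc7a3, Slc7a11, Slc1a4, Slc1a5, Slc38a1, Slc38a2 and Slc6a9. They were chosen by name, with earlier results of these data known. All 10 were found among the 41091 genes of the count tables by matching Ensembl identifiers to GENCODE mouse symbols. All 10 also passed the filter on low counts that left 16669 genes for testing. The cultures came from olfactory epithelium of adult C57BL6 mice, taken 9 days after a methimazole lesion, when the tissue is being rebuilt. The dissociated cells grew as adherent cultures with EGF and FGF2 and received a lentivirus that carried a short hairpin RNA. The hairpin was directed at Cbx8 (shCBX8, libraries 1, 2 and 6), at Cbx7 (shCBX7, libraries 1, 2 and 5) or, as a scrambled sequence with no target, served as control (shCTR, libraries 1, 2, 5 and 6). All groups shared the lesion, the medium and a lentiviral hairpin, and per the labels they differed in the target of the hairpin. CBX7 and CBX8 are chromodomain proteins of Polycomb repressive complex 1. The labels do not say how many hairpin sequences were used per gene, nor which animals or cultures the replicate numbers stand for, so the p-values below measure the spread between these libraries. The study's design text gives 3 biological replicates per treatment, while 4 control libraries are present.

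ATF4 is translated when the initiation factor eIF2 alpha is phosphorylated, for example by the kinase GCN2 when amino acids run short. It then pairs with C/EBP family proteins or other basic leucine zipper factors, binds elements in its target genes, and raises the transcripts of amino acid transporters, asparagine synthetase and aminoacyl-tRNA synthetases. Most plasma membrane amino acid carriers either exchange one amino acid for another or use the sodium gradient to concentrate their substrate. Some also answer to other factors. The cystine carrier Slc7a11 is a known target of the oxidative stress factor NRF2, and Slc7a5 and Slc1a5 are known targets of MYC.

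RefSeq promoter sequences, from 250 bases before to 50 bases after an annotated start on GRCm38.p6, were at hand for 6 of the 10 genes: Slc3a2, Slc7a1, Slc7a11, Slc1a4, Slc38a2 and Slc6a9. They were searched on both strands for the core of the C/EBP-ATF response element, TGATGNAA, at which ATF4 is known to bind. These letters occur in 3.97% of 32851 promoters of the same length. They were found in Slc7a11, with 2 matches, and in Slc1a4, with 1 match across the start. The Slc7a11 promoter is shown because it carries both matches, in opposite orientations, at bases -66 to -59 and -47 to -40 from the start. It covers chr3:50443614-50443863 on the minus strand, and the capitals mark the core.
Slc7a11: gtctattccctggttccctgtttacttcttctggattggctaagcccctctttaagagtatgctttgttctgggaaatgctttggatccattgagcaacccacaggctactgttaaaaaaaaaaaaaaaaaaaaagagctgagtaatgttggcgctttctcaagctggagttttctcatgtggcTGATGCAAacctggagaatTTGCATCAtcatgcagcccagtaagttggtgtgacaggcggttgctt
The short stretches below place the Slc1a4 match, at chr11:20332702-20332725 on the minus strand, beside those of the ATF4 targets Asns (chr6:7693217-7693240, minus strand), Chac1 (chr2:119351041-119351064, plus strand) and Atf3 (chr1:191183428-191183451, minus strand), whose values are given further on. The 3 targets shown were all called higher in shCBX8 against shCTR, while of the other targets with the core 2 were lower and 3 not called. Each stretch runs 5′ to 3′ on the strand of its gene, with the core or its reverse complement in capitals.
Slc1a4: ctcctgcgTTGCATCAtctccagc
Asns: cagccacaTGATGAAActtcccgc
Chac1: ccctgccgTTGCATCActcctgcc
Atf3: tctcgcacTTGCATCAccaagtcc
The core of the antioxidant response element, TGACNNNGC, which NRF2 is known to use, was searched in the same way and occurs in 12.4% of all promoters. Among the members it was found in Slc7a1, Slc38a2 and Slc6a9, the stretches of which follow with the core in capitals. They lie at chr5:148399899-148399923 on the minus strand, chr15:96699739-96699763 on the minus strand, and chr4:117849296-117849320 and chr4:117855494-117855518 on the plus strand, since Slc6a9 has several annotated starts.
Slc7a1: gccgcgcgGCGCTGTCAttggtgcc
Slc38a2: ccgcccacTGACGCGGCgccccgcc
Slc6a9 start 2: aaagtaatTGACGCTGCccagcccg
Slc6a9 start 3: ttccggctTGACTTGGCtgcttggt
The E-box letters CACGTG, bound by MYC, occur in 7.15% of promoters and in no promoter of these 6 genes. No match to one motif overlapped a match to another in these 6 genes. A match describes letters only and is not evidence of binding, and elements outside these windows, such as the known amino acid response element in the first intron of Slc38a2, were not searched.

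Levels are in CPM, that is, reads on the sense strand of a gene relative to the total of its library, with totals scaled by trimmed mean of M values (TMM). Libraries held 22763014 to 50463172 such counts. The hairpin against Cbx8 was met by a lower Cbx8 level, 4.95 ± 0.219 CPM in shCBX8 against 12.3 ± 2.55 CPM in shCTR (SD, n = 3 and 4), a log2 fold change of -1.31 (adjusted p = 0.00416). Cbx7 did not pass the test in shCBX7, at 3.64, 8.02 and 13.1 CPM against 17.7, 16.4, 13.5 and 5.30 CPM in shCTR (log2 fold change -0.67, adjusted p = 0.929), so the label shCBX7 is not borne out by its own target here. Counts of the shCBX8 libraries 1 and 6 differed less from each other (chi-square per degree of freedom 28.9) than those of any other pair of the same group (112 to 447). Forward-strand reads over olfactory and vomeronasal receptor genes, a measure of background, summed to 14.5 to 27.4 CPM in shCBX8, 11.0 to 16.1 CPM in shCBX7 and 32.9 to 111 CPM in shCTR, highest in shCTR 1 and 2. The shCTR range did not overlap those of shCBX8 and shCBX7. In comparisons with shCTR, a fit with this measure as covariate therefore cannot fully separate background from hairpin. Of the neuronal markers of the epithelium, Omp stayed at or below 0.605 CPM in every library and Cnga2 at or below 0.323 CPM, while Gng8, Gap43 and Adcy3 had medians of 4.17, 12.3 and 35.9 CPM. Of the progenitor markers, Neurog1 was at 0 in 6 of 10 libraries, while Neurod1, Kit and Lgr5 were above 0 in all, with medians of 0.404, 1.199 and 1.91 CPM. Of the horizontal basal cell markers, Trp63 had a median of 2.86 CPM, and Krt5, Itgb4, Icam1 and Krt14 had medians of 101, 117, 167.5 and 224 CPM. Fibroblast markers (7 genes, none at 0 in any library) summed to 158 to 2924 CPM in shCBX8, 5208 to 17625 CPM in shCBX7 and 5520 to 27924 CPM in shCTR. The 5 smooth muscle and pericyte markers summed to 1649 to 5322 CPM in shCBX8, 438 to 1219 CPM in shCBX7 and 505 to 1632 CPM in shCTR. Most of this sum was the pericyte gene Rgs5, with a mean of 3293 CPM in shCBX8 against 576 CPM in shCTR, while Acta2 averaged 128 CPM in shCBX8 against 242 CPM in shCTR and Myh11 1.59 against 2.80 CPM, and neither of these passed the test. The 5 horizontal basal cell markers summed to 1027 to 1184, 266 to 843 and 313 to 1050 CPM in the same groups, with overlap between shCBX8 and shCTR. Of these 5 only Trp63 passed the test as higher, with a mean of 12.2 CPM in shCBX8 against 3.44 CPM in shCTR. Icam1 lay the other way, at 106 against 187 CPM, and did not pass. The fibroblast sum and the smooth muscle and pericyte sum of shCBX8 lay outside the ranges of both other groups. So did the sum of the 5 globose basal cell and progenitor markers. It was 7.10 to 15.2 CPM in shCBX8, 1.54 to 6.32 CPM in shCBX7 and 1.85 to 6.94 CPM in shCTR. Of these, by edgeR's quasi-likelihood test against shCTR, Lgr5 was higher (log2 fold change 2.40, adjusted p = 0.0464) and Neurod1 lower (-1.78, adjusted p = 0.0303). The part of all these cell type markers in the transporter differences was not tested. In such bulk RNA, fewer cells of a type and less RNA per cell cannot be told apart.

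In shCBX8 cultures 3 of the 10 transporters were higher than in control cultures and none was lower: Slc38a1, Slc7a3 and Slc6a9. By edgeR's quasi-likelihood test with Benjamini-Hochberg adjustment over all genes at 0.05, 32.9% of the 16669 genes tested passed in this comparison, 17% as higher and 15.9% as lower. A count of 3 in 10 is close to the share over all genes. The 10 log2 fold changes fell on both sides of 0, 5 above and 5 below, with a median of 0.09 against -0.01 over all genes tested. For 5 of the 10 transporters no shCBX8 library lay within the range of the controls, the 3 called higher and Slc38a2 and Slc1a4 with all shCBX8 libraries lower, beside 42.4% of all genes without overlap between these groups. The summed level of the 10 genes was 585 to 694 CPM in shCBX8 against 612 to 968 CPM in shCTR, with overlap. The transporters are described in turn by the kind of carrier they encode.

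**Figure D1:**
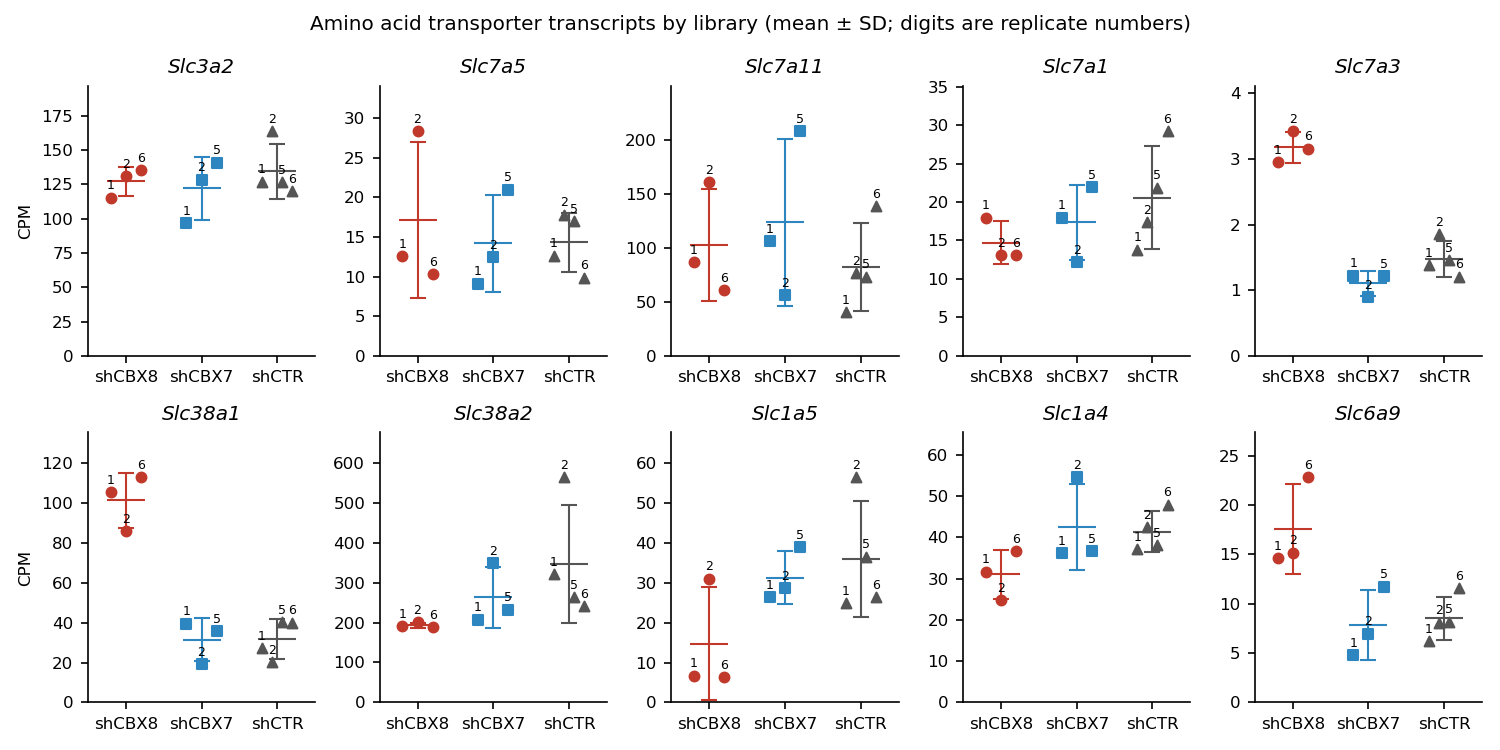
Level of each of the 10 transporters (CPM, linear axes from 0) in shCBX8, shCBX7 and shCTR libraries; points are libraries with their replicate number, horizontal lines are group means and bars are ± 1 SD (n = 3, 3 and 4). The 3 shCBX8 libraries lie above all 7 others for Slc38a1, Slc7a3 and Slc6a9 and below all 7 others for Slc38a2, while the groups overlap for Slc3a2, Slc7a5, Slc7a11 and Slc7a1.

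The sodium-coupled neutral amino acid carriers Slc38a1 and Slc38a2 gave opposite pictures. Slc38a1, known as SNAT1, takes up glutamine and other small neutral amino acids (ENSMUSG00000023169, chr15:96571418-96642913, minus strand). Its level was 105, 86.1 and 113 CPM in shCBX8 libraries 1, 2 and 6, against 27.2, 20.1, 40.3 and 40.0 CPM in shCTR libraries 1, 2, 5 and 6. Every shCBX8 library lay well above every control. Slc38a1 was 3.18-fold higher, a log2 fold change of 1.67 with a standard error of 0.294 and a 95% interval of 1.01 to 2.33 (adjusted p = 0.00485). This was the largest rise among the 10 members. The call held in 19 of 20 alternative settings and was lost when the receptor background was added as a covariate (log2 fold change 1.18, adjusted p = 0.138).

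Slc38a2, known as SNAT2, is the carrier of this family best known for being induced when amino acids are withdrawn (ENSMUSG00000022462, chr15:96687392-96699730, minus strand). It had 190.4, 200.4 and 189 CPM in shCBX8, against 321, 563, 263 and 241 CPM in shCTR. All 3 shCBX8 libraries lay below all 4 controls and close to each other, while the controls were spread widely, with shCTR 2 the highest. The log2 fold change was -0.84 with a standard error of 0.303 (adjusted p = 0.0578), which did not pass the test. It passed in 4 of 20 alternatives, which were DESeq2 (adjusted p = 0.0275), the fit with a replicate block (0.0306), and the fits without shCBX7 2 (0.0457) and without shCTR 6 (0.0382). The log2 fold change shrank to -0.15 with the background covariate (adjusted p = 0.862), to -0.40 without shCTR 1 and 2 (adjusted p = 0.224) and to -0.54 without shCTR 2 alone (adjusted p = 0.0811).

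Slc38a1 and Slc38a2 are neighbours on chromosome 15, both on the minus strand and 44478 bases apart. Per kilobase of exon, Slc38a2 exceeded Slc38a1 by 3.52, 4.54 and 3.27 times in shCBX8 libraries 1, 2 and 6. The same ratio was 10.2, 35.1 and 12.6 in shCBX7 libraries and 23.0, 54.6, 12.8 and 11.8 in shCTR libraries. The 3 ratios of shCBX8 lay below all others, and Slc38a2 remained the more abundant of the pair in all 10 libraries. This ratio combines the values of both genes given above and carries no test of its own.

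**Figure D2:**
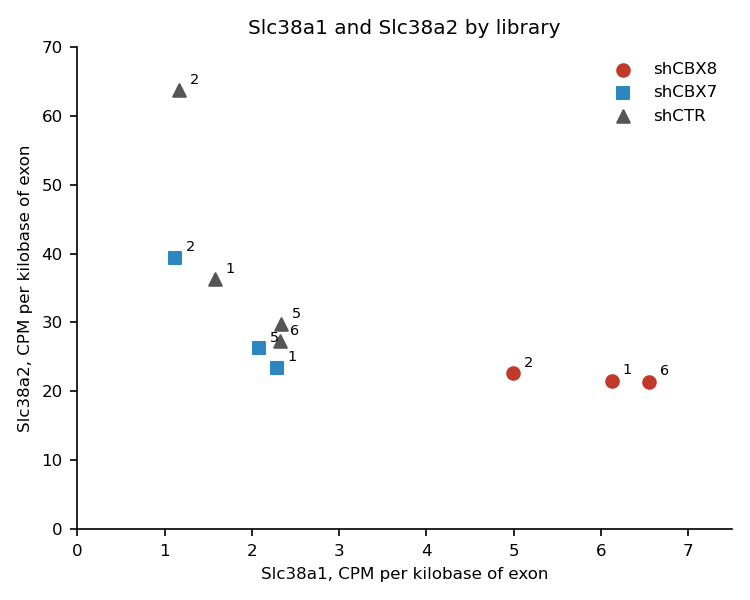
Slc38a2 against Slc38a1 in each library (CPM per kilobase of exon on both axes, linear, from 0), with replicate numbers beside the points. The 3 shCBX8 libraries sit at 4.996 to 6.55 for Slc38a1 and 21.4 to 22.7 for Slc38a2, apart from the 7 others, which hold 1.12 to 2.34 for Slc38a1 and 23.5 to 63.7 for Slc38a2.

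The cationic amino acid carriers are Slc7a1 and Slc7a3, which move arginine, lysine and ornithine without a partner chain. Slc7a3, known as CAT3 (ENSMUSG00000031297, chrX:101079210-101086020, minus strand), had the lowest level of the 10 in every group. It measured 2.95, 3.43 and 3.16 CPM in shCBX8, from 141, 114 and 147 reads, against 1.39, 1.85, 1.46 and 1.21 CPM in shCTR, from 35, 37, 41 and 42 reads. The groups did not overlap, and the 3 shCBX8 libraries lay close together. The fold change was 2.16, or 1.11 on the log2 scale with a standard error of 0.238 and a 95% interval of 0.57 to 1.64 (adjusted p = 0.0097). The call held in 19 of 20 alternatives and was lost with the background covariate, under which the log2 fold change was 1.23 (adjusted p = 0.0953). Antisense reads over Slc7a3 numbered 0 to 3 in shCBX8 and 2 to 9 in shCTR.

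Slc7a1, known as CAT1 and the widely expressed member of the pair (ENSMUSG00000041313, chr5:148327410-148399904, minus strand), ran from 13.07 to 17.98 CPM in shCBX8 against 13.8 to 29.2 CPM in shCTR. The groups overlapped, and the log2 fold change of -0.48 did not pass (standard error 0.287, adjusted p = 0.217). The 2 cationic carriers therefore differed in that Slc7a3 passed the test as higher and Slc7a1 had a value below 0; a test of one against the other was not run. Per kilobase of exon Slc7a1 stood at 1.28 ± 0.245 and Slc7a3 at 0.841 ± 0.0627 CPM in shCBX8, against 1.78 ± 0.576 and 0.39 ± 0.0719 CPM in shCTR (SD, n = 3 and 4).

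The glycine carrier Slc6a9, known as GLYT1, uses sodium and chloride to bring glycine into cells (ENSMUSG00000028542, chr4:117834506-117875198, plus strand). Its level was 14.6, 15.2 and 22.8 CPM in shCBX8, against 6.22, 8.06, 8.19 and 11.5 CPM in shCTR. All shCBX8 libraries lay above all controls, with shCBX8 6 the highest and shCTR 6 the highest of the controls. The fold change was 2.06, a log2 value of 1.04 with a standard error of 0.326 and a 95% interval of 0.31 to 1.78 (adjusted p = 0.0364). This call was the least firm of the 3 and held in 13 of 20 alternatives. It was lost without shCBX8 1, shCBX8 6, shCTR 1, shCTR 2 or shCTR 5 (adjusted p = 0.0702, 0.145, 0.0929, 0.0794 and 0.0761), without both shCTR 1 and 2 (0.186) and with the background covariate (0.381), at log2 fold changes of 0.76 to 1.17. Exons of Slc6a9 overlap those of B4galt2, Ccdc24 and Gm17114 on the opposite strand, and antisense reads numbered 33 to 44 in shCBX8, beside 505 to 1060 sense reads, and 23 to 49 in shCTR, beside 157 to 401 sense reads. No exon of the other 9 transporters overlaps another annotated gene.

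The neutral amino acid exchangers Slc1a5 and Slc1a4 were not called in either direction. Slc1a5, known as ASCT2, exchanges glutamine with other neutral amino acids (ENSMUSG00000001918, chr7:16781340-16798274, plus strand). It had 6.73, 31.0 and 6.28 CPM in shCBX8 libraries 1, 2 and 6, against 24.8, 56.4, 36.6 and 26.3 CPM in shCTR. The shCBX8 libraries 1 and 6 lay far below every control, while shCBX8 2 lay among the controls. The log2 fold change of -1.30 did not pass (standard error 0.569, adjusted p = 0.106). Without shCBX8 2 it was -2.47 and passed (adjusted p = 0.00223). With all libraries kept it also passed by DESeq2 (adjusted p = 0.0488) and with a replicate block in the fit (adjusted p = 0.0269), and these were the 3 of 20 alternatives that called it. Slc1a4, known as ASCT1, exchanges alanine, serine, cysteine and threonine (ENSMUSG00000020142, chr11:20302180-20332713, minus strand). It had 31.7, 24.8 and 36.6 CPM in shCBX8, against 37.2, 42.5, 38.2 and 47.9 CPM in shCTR. The groups did not overlap, but shCBX8 6 and shCTR 1 were nearly level, and the log2 fold change of -0.42 did not pass (standard error 0.191, adjusted p = 0.119).

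The heavy chain Slc3a2 and the light chains Slc7a5 and Slc7a11 form a set of their own. SLC3A2, also called CD98 or 4F2hc, carries its light chains to the plasma membrane. With SLC7A5, or LAT1, it exchanges leucine and other large neutral amino acids for glutamine, and with SLC7A11, or xCT, it imports cystine in exchange for glutamate. Slc3a2 (ENSMUSG00000010095, chr19:8706882-8723369, minus strand) had 115, 131 and 136 CPM in shCBX8, against 127, 164, 127 and 120 CPM in shCTR. The groups overlapped over most of their range, and the log2 fold change was -0.08 with a 95% interval of -0.44 to 0.28 (adjusted p = 0.729). Slc7a5 (ENSMUSG00000040010, chr8:121881150-121907694, minus strand) had 12.6, 28.4 and 10.3 CPM in shCBX8, against 12.6, 17.8, 17.0 and 9.88 CPM in shCTR. shCBX8 2 was higher than all others and the rest were mixed, with a log2 fold change of 0.25 and a 95% interval of -0.65 to 1.16 (adjusted p = 0.653). Slc7a11 (ENSMUSG00000027737, chr3:49892526-50443614, minus strand) had 87.0, 161 and 60.6 CPM in shCBX8, against 40.7, 76.7, 73.4 and 139 CPM in shCTR. It too was highest in shCBX8 2 among the shCBX8 libraries and was spread within every group, and its log2 fold change was 0.32 with a 95% interval of -0.85 to 1.49 (adjusted p = 0.66). The intervals of both light chains are wide enough to hold a change of more than 1 log2 unit upward, so these libraries do not settle whether they differ.

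The libraries of one group varied to very different degrees from gene to gene. Within shCBX8 the SD was 50.6% of the mean for Slc7a11, 57.5% for Slc7a5 and 96.5% for Slc1a5, against 8.34% for Slc3a2, 7.46% for Slc7a3 and 3.19% for Slc38a2. In shCTR it was 49.7% for Slc7a11, 26.2% for Slc7a5 and 14.8% for Slc3a2. The light chain transcripts thus varied more from library to library than that of the heavy chain. Per exon length, Slc7a5 amounted to 0.104, 0.206 and 0.0726 of Slc3a2 in shCBX8, 0.0897, 0.0924 and 0.142 in shCBX7, and 0.0946, 0.104, 0.128 and 0.0784 in shCTR. Slc7a11 amounted to 0.191, 0.312 and 0.113 of Slc3a2 in shCBX8, 0.279, 0.111 and 0.375 in shCBX7, and 0.0812, 0.119, 0.147 and 0.293 in shCTR. The groups overlapped for both ratios. By an exact two-sided permutation test over libraries, the log2 ratio of Slc7a5 to Slc3a2 differed by 0.22 in shCBX8 against shCTR (p = 0.629) and by 0.08 in shCBX7 against shCTR (p = 0.771). For Slc7a11 over Slc3a2 the differences were 0.41 (exact permutation p = 0.486) and 0.67 (exact permutation p = 0.343). Adjusted over these 4 tests every p was 0.771, and the smallest p that 3 against 4 libraries allow is 0.0286.

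With each of these 3 genes, the genes of most similar profile were looked for among 11162 genes whose mean reached 5 CPM, by the root mean square difference of centred log2 CPM over the 10 libraries. Slc3a2 lay nearest to Taz, Crlf2 and Rprd2, at 0.0899, 0.0939 and 0.0971 log2 units. Slc7a5 lay nearest to Brpf3, Pde4a and Parp12, at 0.272, 0.283 and 0.291. Slc7a11 lay nearest to Tgfb1, Nr4a1 and Trib1, at 0.341, 0.351 and 0.402. The distances were smallest for Slc3a2 and largest for Slc7a11, and none of these 9 genes passed the test in shCBX8 against shCTR (adjusted p of 0.649 to 0.979).

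In shCBX7 cultures no transporter differed from control by the test. By edgeR's quasi-likelihood test 0% of all genes passed, 975 of 16669 (5.85%) had an unadjusted p under 0.05, and DESeq2 called 91 genes, none of them a transporter. All 10 transporters overlapped between shCBX7 and shCTR, where 5.42% of all genes did not overlap, and none had an unadjusted p under 0.05. Log2 fold changes ran from -0.41 for Slc7a3 to 0.59 for Slc7a11, with 2 above 0 and 8 below. Slc7a11 had 106, 56.2 and 208 CPM in shCBX7 libraries 1, 2 and 5, against 40.7, 76.7, 73.4 and 139 CPM in shCTR. shCBX7 2 lay inside the control range and shCBX7 5 above it, and the 95% interval of the log2 fold change ran from -0.58 to 1.75 (adjusted p = 0.934). Slc38a1 had 39.5, 19.3 and 35.9 CPM in shCBX7, against 20.1 to 40.3 CPM in shCTR, so that shCBX7 2 lay just below the lowest control and the others among the controls, with a log2 fold change of -0.02 and a 95% interval of -0.68 to 0.65. For Slc7a3 the 95% interval was -0.96 to 0.14, and for Slc6a9 it was -0.86 to 0.62. Since the Cbx7 transcript itself did not pass the test, these values describe the libraries labelled shCBX7.

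**Figure D3:**
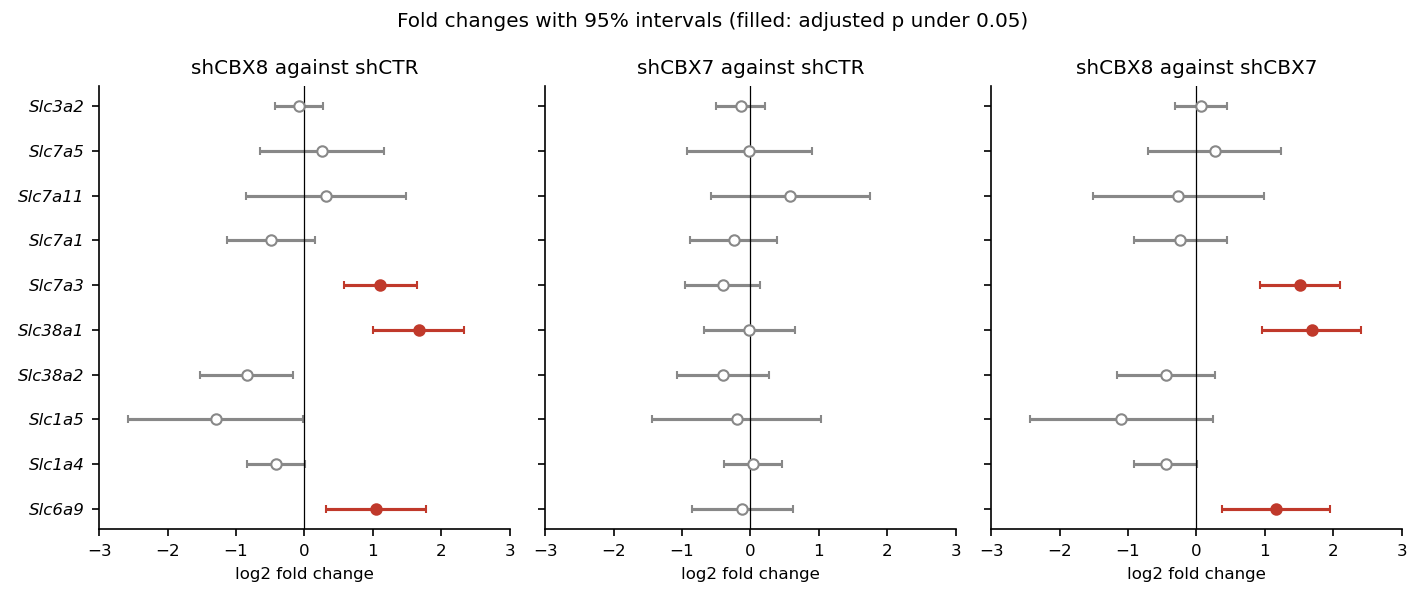
Log2 fold changes of the 10 transporters with 95% intervals in shCBX8 against shCTR, shCBX7 against shCTR and shCBX8 against shCBX7; filled points have an adjusted p under 0.05 (edgeR's quasi-likelihood test). Slc7a3, Slc38a1 and Slc6a9 are filled in both comparisons that involve shCBX8, all others are open, and the first 2 panels share their control libraries.

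The direct comparison of the hairpins called the same 3 genes. In shCBX8 against shCBX7, 28.6% of all genes passed, 15.3% as higher and 13.3% as lower, beside 3 of the 10 transporters as higher and 0 as lower. Slc38a1 had 86.1 to 113 CPM in shCBX8 against 19.3 to 39.5 CPM in shCBX7, a log2 fold change of 1.68 with a standard error of 0.323 (adjusted p = 0.00786). Slc7a3 had 2.95 to 3.43 CPM in shCBX8 against 0.891 to 1.22 CPM in shCBX7, a log2 fold change of 1.51 with a standard error of 0.26 (adjusted p = 0.00567). Both calls held in 20 of 20 alternatives, the background covariate included. Slc6a9 had 14.6 to 22.8 CPM in shCBX8 against 4.80 to 11.7 CPM in shCBX7, a log2 fold change of 1.16 with a standard error of 0.354 (adjusted p = 0.0372). It held in 11 of 20 alternatives. Among those in which it was lost were leaving out shCBX8 1, shCBX8 6, shCBX7 1, shCBX7 2 or shCTR 5 (adjusted p = 0.0733, 0.14, 0.118, 0.113 and 0.0543), counts without regard to strand (0.0724) and a fit of only these 2 groups (0.0718). The Slc6a9 call was also lost with the background covariate and with no filter on low counts. This comparison uses the shCBX8 libraries of the comparison with control, so it does not add independent shCBX8 samples. Slc38a2 again lay lower in all 3 shCBX8 libraries than in all 3 shCBX7 libraries (207, 348 and 233 CPM), with a log2 fold change of -0.44 that did not pass (adjusted p = 0.315), beside 48.2% of all genes without overlap. The shCBX7 libraries held 26.3, 28.7 and 38.9 CPM of Slc1a5, whose log2 fold change of -1.10 (adjusted p = 0.186) became -2.28 without shCBX8 2 (adjusted p = 0.00335). The other 5 transporters overlapped, with log2 fold changes of -0.45 to 0.27.

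Set in order of level per kilobase of exon, the transporters ran from 36.1 to 0.841 CPM in shCBX8, from 34.6 to 0.293 CPM in shCBX7 and from 39.3 to 0.39 CPM in shCTR, a narrower span in shCBX8. In shCBX8 the order was Slc3a2 (36.1 ± 3.01), Slc38a2 (21.9 ± 0.697), Slc1a4 (7.91 ± 1.51), Slc7a11 (7.39 ± 3.74), Slc38a1 (5.89 ± 0.804), Slc7a5 (4.61 ± 2.65), Slc1a5 (3.52 ± 3.39), Slc6a9 (3.41 ± 0.886), Slc7a1 and Slc7a3 (CPM per kilobase, SD, n = 3). In shCTR it was Slc38a2 (39.3 ± 16.8), Slc3a2 (38.1 ± 5.65), Slc1a4 (10.6 ± 1.25), Slc1a5 (8.64 ± 3.49), Slc7a11 (5.92 ± 2.94), Slc7a5 (3.87 ± 1.01), Slc38a1 (1.85 ± 0.576), Slc7a1, Slc6a9 (1.65 ± 0.432) and Slc7a3 (n = 4). Slc38a1 thus stood at rank 5 in shCBX8, against rank 7 in shCBX7 and in shCTR. In shCBX8 the neighbours from Slc1a4 down to Slc6a9 overlapped in their libraries, while Slc3a2, Slc38a2, Slc7a1 and Slc7a3 were each clear of the next. In shCTR, Slc38a2 and Slc3a2 overlapped, so did Slc1a4, Slc1a5, Slc7a11 and Slc7a5 in sequence, and so did Slc38a1, Slc7a1 and Slc6a9. Slc38a2 and Slc3a2 together made up 62.4% of the summed level of the 10 genes in shCBX8, 64.0% in shCBX7 and 69.1% in shCTR. Levels per kilobase use all annotated exons of a gene, 17236 bases for Slc38a1 and 13922 for Slc7a11, so transcripts that use fewer of them are understated.

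**Figure D4:**
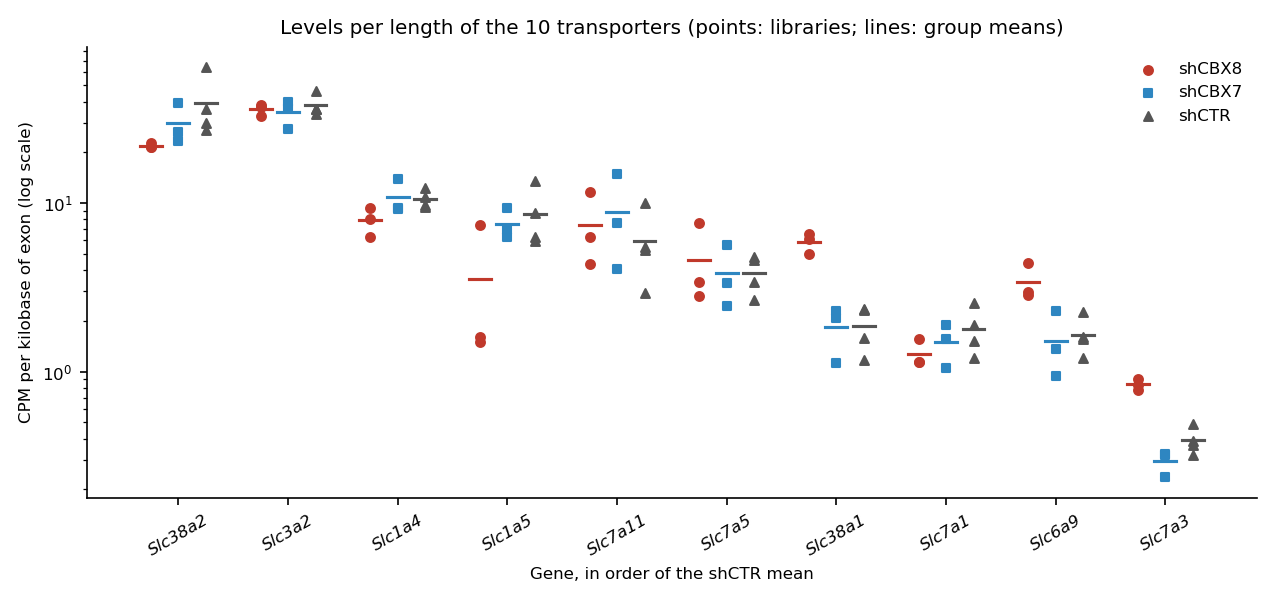
Level per length of the 10 transporters (CPM per kilobase of exon, log axis), in the order of the shCTR mean; points are libraries of shCBX8, shCBX7 and shCTR and lines are group means. The levels run from 63.7 for Slc38a2 in shCTR 2 to 0.235 for Slc7a3 in an shCBX7 library, and the shCBX8 points of Slc38a1, Slc6a9 and Slc7a3 lie above those of both other groups.

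Among carriers of the same families that are not among the 10, some differences were larger. Of 11 other SLC7 and SLC3 genes, 6 were tested. In shCBX8 against shCTR 1 was higher and 1 lower, beside 17% and 15.9% of all genes tested. The lower one was Slc7a2, the cationic carrier CAT2, with 2.39, 5.98 and 2.92 CPM in shCBX8 against 95.1, 59.8, 69.9 and 65.1 CPM in shCTR. The groups were far apart, and its log2 fold change of -4.27 (adjusted p = 0.000751) held in all 20 alternatives. Slc7a4, a relative with no settled substrate, had a log2 fold change of 0.99 (adjusted p = 0.0292), and its call was lost without shCBX8 1, shCBX8 6, shCTR 2, shCTR 5 or shCTR 6 (adjusted p of 0.0564 to 0.13). Slc3a1, the heavy chain of the cystine and dibasic amino acid carrier, had a log2 fold change of 0.81 (adjusted p = 0.057), and Slc7a6, a light chain of SLC3A2, one of -0.45 (adjusted p = 0.106).

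Of 23 further amino acid transporters, 16 were tested, and 2 were higher and 7 lower in shCBX8 against shCTR. This stands beside 17% of all genes tested as higher and 15.9% as lower. The median log2 fold change of the 16 was 0.07. The glutamate and cysteine carrier Slc1a1 had 9.58, 5.53 and 12.2 CPM in shCBX8 against 0.752, 0.801, 0.961 and 1.41 CPM in shCTR, a log2 fold change of 3.20 (adjusted p = 0.0057). The groups were far apart, although the call was lost with the background covariate (adjusted p = 0.0852) and without shCTR 1 and 2 (adjusted p = 0.0522). Slc36a4, Slc43a2 and Slc43a1 were lower, with log2 fold changes of -1.46, -1.69 and -2.66 (adjusted p = 0.00265, 0.00443 and 0.00913). Slc43a2 was called in all 20 alternatives, and Slc36a4 was lost only with the background covariate (adjusted p = 0.0515). Slc43a1 lay near the floor, at a mean of 0.0867 CPM in shCBX8 against 0.576 CPM in shCTR. Its call was lost with the covariate (log2 fold change -1.16, adjusted p = 0.301) and without shCTR 1 and 2 (adjusted p = 0.0549). SLC43A1 and SLC43A2, known as LAT3 and LAT4, carry large neutral amino acids by themselves, as SLC7A5 does with its heavy chain. With the background covariate 0 of these 16 were higher and 1 lower, and without shCBX8 1 or shCBX8 6 the number lower was 3.

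The Atf4 transcript itself did not pass the test in shCBX8, at 229.6, 226 and 243 CPM against 181, 202, 214 and 226 CPM in shCTR (log2 fold change 0.18, adjusted p = 0.295). Because ATF4 is set largely by translation, its transcript level is not a measure of its protein. Of 10 genes of ATF4 and eIF2 alpha signalling, 2 were higher and 2 lower, beside 17% and 15.9% of all genes tested. Ppp1r15a, the stress-induced subunit that directs phosphatase to eIF2 alpha, had a log2 fold change of 1 (adjusted p = 0.00656), and Eif2s1, eIF2 alpha itself, one of 0.73 (adjusted p = 0.0198). Ppp1r15b, the constitutive counterpart of Ppp1r15a, had -0.52 (adjusted p = 0.018) and the kinase Eif2ak1 had -0.26 (adjusted p = 0.0497). With the background covariate 0 of the 10 were higher and 1 lower, with Ppp1r15a at 0.97 (adjusted p = 0.0894) and Eif2s1 at 0.32 (adjusted p = 0.482), and without shCTR 1 and 2 Ppp1r15a passed and Eif2s1 did not (adjusted p = 0.0479 and 0.123). The calls of Eif2s1 and Ppp1r15b were also lost without shCBX8 1 (adjusted p = 0.0827 and 0.0795), that of Eif2s1 also without shCTR 1 (0.0561) and that of Ppp1r15b also without shCBX8 6 (0.0805), while Eif2ak1 held in only 3 of 20 alternatives.

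Of 27 ATF4 targets other than transporters, 7 were higher and 3 lower in shCBX8, beside 17% and 15.9% of all genes tested. The median log2 fold change of the 27 was 0.31 against -0.01 over all genes. With the background covariate 1 was higher and 1 lower (median 0.19), and without shCTR 1 and 2 it was 5 and 1 (median 0.16). Without shCBX8 6 alone 6 were higher and 1 lower, and with library size in place of TMM 11 were higher and 3 lower. Chac1, which degrades glutathione, had 24.5, 24.7 and 28.4 CPM in shCBX8 against 3.999, 3.41, 5.59 and 5.87 CPM in shCTR. Atf3, a stress-induced transcription factor, had 63.0, 46.3 and 75.0 CPM in shCBX8 against 5.31, 2.60, 6.51 and 10.3 CPM in shCTR. For both genes every shCBX8 library lay far above the highest control, and the log2 fold changes were 2.45 and 3.31 (adjusted p = 0.00146 and 0.00406). Asns, the asparagine synthetase, was higher by 0.95 and Ddit3, which encodes CHOP, by 0.83 (adjusted p = 0.00427 and 0.00419). Of these 4, only Chac1 was still called with the background covariate (adjusted p = 0.0289), while all 4 were called without shCTR 1 and 2. The C/EBP-ATF core stands in the promoters of 9 of the 24 targets with a promoter at hand, and of those 9, 4 were higher, 2 lower and 3 not called. Slc7a11 and Slc1a4, the transporters that hold the core, were not called.

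Of 20 cytosolic aminoacyl-tRNA synthetases, which charge transfer RNAs with amino acids, 6 were higher and 0 lower in shCBX8 against shCTR. Over all genes tested in this comparison, 17% were higher and 15.9% lower. The median log2 fold change of the 20 synthetases was 0.38. The 4 of smallest p were Rars with a log2 fold change of 1.06, Sars with 0.62, Dars with 0.52 and Aars with 0.70 (adjusted p = 0.00505, 0.009, 0.00954 and 0.0262). With the background covariate 0 of the 20 passed and without shCTR 1 and 2 only 1 did. Leaving out shCBX8 1, shCBX8 6, shCTR 1 or shCTR 2 alone left 3 each time, and Aars was lost in these 4 fits (adjusted p of 0.0662 to 0.0774). Of 12 NRF2 and glutathione genes, 7 were higher and 1 lower, with a median of 0.84. Gsr, the glutathione reductase, rose by 1.51, Gpx4, which reduces lipid peroxides, by 1.08, and the heme oxygenase Hmox1 by 1.67 on the log2 scale (adjusted p = 0.00534, 0.00725 and 0.00962). Keap1, the inhibitor of NRF2, fell by 0.44 (adjusted p = 0.0135), a call that held in 14 of 20 alternatives. It was lost without shCBX8 1 or shCBX8 6 (adjusted p = 0.0701 and 0.056) and without shCTR 1 and 2 (0.061). The background covariate (adjusted p = 0.19), library size only and no filter on low counts lost it too. Their fellow NRF2 target Slc7a11, described above, did not pass. With the covariate 1 of the 12 was higher and 2 lower, and without shCTR 1 and 2 it was 4 and 0. The number higher was 3 without shCBX8 1 and 4 without shCBX8 6, shCBX7 1, shCTR 1, shCTR 2 or shCTR 5. Of the 4 MYC family genes tested 1 passed, Mycn, with a log2 fold change of -3.34 (adjusted p = 0.00225), while Myc had 0.35 (adjusted p = 0.653). In shCBX7 against shCTR 0 genes of each of these 7 lists passed.

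**Figure D5:**
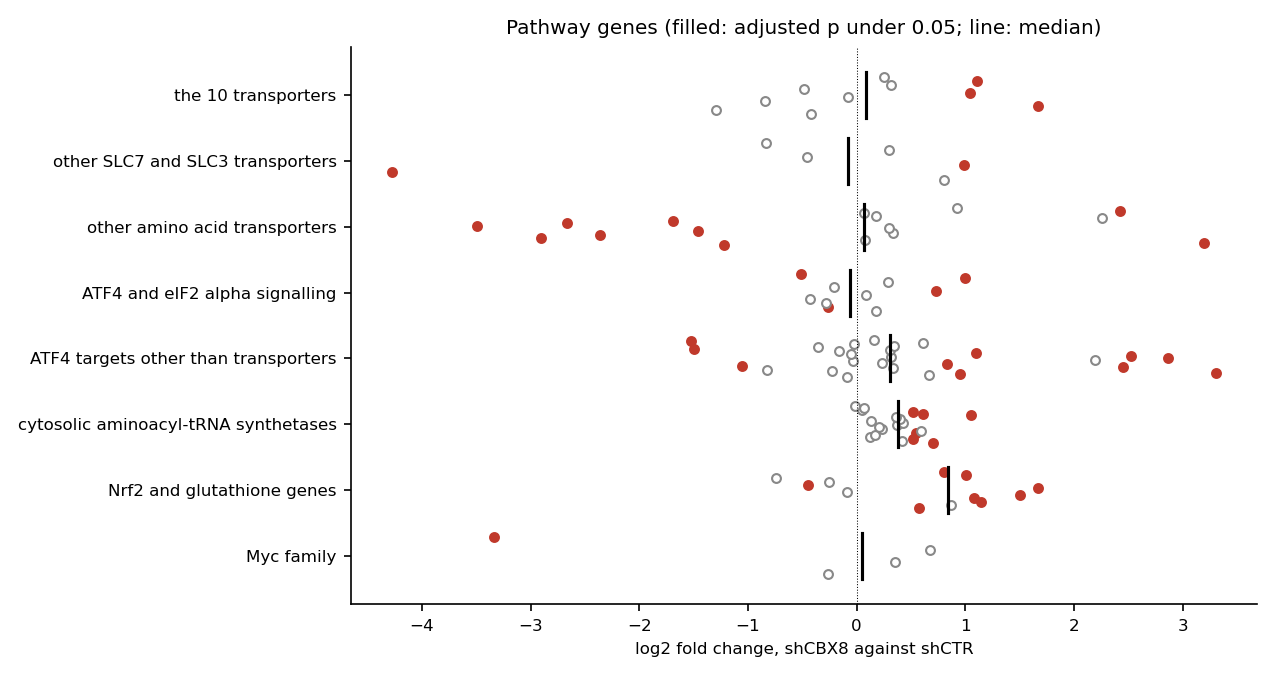
Log2 fold change in shCBX8 against shCTR of each tested gene, for the 10 transporters and for 7 lists of related genes; filled points have an adjusted p under 0.05 and black bars are list medians. The transporters lie on both sides of 0 with 3 filled points above it, Slc7a2 is the lowest point at -4.27, and the NRF2 and glutathione genes have the highest median, 0.84.

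In shCBX8 against shCBX7, 8 ATF4 targets were higher and 3 lower, among them Chac1 (2.60) and Atf3 (3.59) as higher (adjusted p = 0.00225 and 0.00578). Of the synthetases 2 were higher and 0 lower, and of the NRF2 and glutathione genes 4 were higher and 1 lower. Of the further amino acid transporters 3 were higher and 3 lower, with Slc1a1 at 3.49 (adjusted p = 0.00781). Slc7a2 had a log2 fold change of -3.53 (adjusted p = 0.00157). Without shCBX8 1 the ATF4 targets gave 3 higher and 0 lower, without shCBX8 6 5 and 0, without shCBX7 1 5 and 0, and without shCBX7 2 4 and 0, and the NRF2 and glutathione genes gave 0 higher in each of these 4 fits. These counts stand beside 15.3% of all genes higher and 13.3% lower in the same comparison.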

How the data were processed

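Total RNA of 10 libraries was sequenced with a stranded total RNA kit, per the labels' protocols. The submitters' processing notes name bcl2fastq 2.17, Trim Galore 0.4.3, STAR 2.5.0a and the build mm10, and no annotation release was stated in them. The authors deposited raw read counts per Ensembl gene, with unstranded, forward-strand and reverse-strand counts, and the reverse-strand count was used. Symbols and exon lengths came from GENCODE M21 on GRCm38, which matched 40217 of 41091 identifiers, and promoters from RefSeq on GRCm38.p6.

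The 4 totals that name no gene (unmapped 5.03 to 21.7%, multimapping 15.4 to 22.1%, no gene 12.5 to 23.6% and ambiguous 0.290 to 0.637% of reads) were left out. Unmapped reads made up 9.83 to 21.7% in shCTR, 7.28 to 7.81% in shCBX8 and 5.03 to 6.20% in shCBX7. Reads in no gene made up 20.4 to 23.6%, 15.4 to 18.6% and 12.5 to 15.0% in the same order. The controls were thus highest in both measures, and the part of this in the comparisons with shCTR was not tested. Genes passed edgeR's filterByExpr (minimum count 10), libraries were scaled by TMM, and edgeR 4.0.16's quasi-likelihood test (R 4.3.3) used 1 fit of all 10 libraries by group. Benjamini-Hochberg adjustment ran over 16669 genes with a threshold of 0.05, and standard errors are the log2 fold change divided by the root of its F statistic. Over all genes, 95% intervals in shCBX8 against shCTR reached a median of 0.606 log2 units to each side. The procedure was tested on simulated counts with known fold changes. These counts held no difference in background between groups, so that test does not bear on the background seen here. DESeq2 1.42.0, other scalings, filters and strands, a replicate block, a background covariate and omitted libraries served as alternatives. Named are all 10 members, Cbx7 and Cbx8, up to 4 genes of each list of related genes with the smallest p in shCBX8 against shCTR, and the 3 nearest profiles of Slc7a5, Slc7a11 and Slc3a2. Cell type markers are named in part. Sustentacular, ensheathing and Schwann, immune and endothelial markers were also looked at. Among them Cd68 (log2 fold change 1.69) and Tek (1.985) passed as higher in shCBX8 against shCTR, and S100b (-2.23) as lower (adjusted p = 0.00726, 0.0406 and 0.0418). The members and lists were chosen with earlier results of these data known.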

Additional observations from a re-analysis of the deposited data

Results flagged for a closer look

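For Slc38a1, Slc7a3 and Slc6a9 the libraries of the 2 targeting hairpins differed by a direct test, the contrast of shCBX8 with shCBX7. Since the Cbx7 transcript did not pass the test in shCBX7, the contrast describes the libraries so labelled. The call of Slc6a9 held in 11 of 20 alternatives. The log2 fold change was 1.68 for Slc38a1 (edgeR's quasi-likelihood test, adjusted p = 0.00786), 1.515 for Slc7a3 (adjusted p = 0.00567) and 1.16 for Slc6a9 (adjusted p = 0.0372), with all 3 shCBX8 libraries above all 3 shCBX7 libraries for each gene. The heavy chain Slc3a2 had 1 control library far from the others: shCTR 2 stood at 164 CPM beside 120 to 127 CPM in the other 3, a gap of 0.837 of the group's range, just above the 95% critical value of Dixon's test for 4 samples. Each of the 10 transporters was looked at in this way in the controls, and chance flags about 1 in 20 such groups.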

How the results depend on the processing

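Slc38a1 and Slc7a3 kept their direction in all 20 alternatives of both comparisons with shCBX8, and Slc6a9 did too. The 48 changes of sign concerned values that passed no test, and their causes were not tested. In shCBX8 against shCTR the transporters called numbered 5 by DESeq2 and 5 with the replicate block (Slc1a5 and Slc38a2 as lower beside the 3), 0 with the background covariate, and 2 to 4 with 1 library left out. Genes called numbered 5478, but 2311 with the covariate, 2409 without shCTR 1 and 2, and 2261 to 6193 with 1 library left out (2261 without shCBX8 1 and 2279 without shCBX8 6). In shCBX7 against shCTR they numbered 0, but 91 by DESeq2 and 0 to 41 with 1 library left out (41 without shCTR 6). In shCBX8 against shCBX7 they numbered 4762, but 1784 to 6005 with 1 library left out (1848 without shCBX8 1, 1784 without shCBX8 6, 2730 without shCBX7 1 and 2900 without shCBX7 2).

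In shCBX8 against shCTR, Slc3a2 took 0.11 with library size only, 0.16 with the covariate and 0.0275 without shCTR 1 and 2, and Slc7a11 took -1.11 with the covariate and -0.0634 without shCTR 1 and 2. With 1 library left out, Slc3a2 ran from -0.14 to 0.00414, Slc7a11 from -0.16 to 0.69 and Slc7a5 from -0.32 to 0.52. In shCBX7 against shCTR, Slc7a5 took 0.0441 with library size only, 0.0534 with no filter, 0.0722 with unstranded counts and 0.0736 without shCTR 1 and 2. Slc38a1 took 0.000263 with library size only, 0.0472 with no filter, 0.0568 with unstranded counts and 0.0572 with the replicate block. Slc6a9 took 0.0461 with unstranded counts. With the covariate Slc3a2 took 0.19, Slc7a11 -1.28 and Slc38a2 0.52, and without shCTR 1 and 2 Slc1a4 took -0.016 and Slc38a2 0.0611. With 1 library left out, Slc7a5 ran from -0.40 to 0.24, Slc3a2 from -0.24 to 0.0224, Slc6a9 from -0.52 to 0.15, Slc1a4 from -0.16 to 0.16, Slc38a1 from -0.19 to 0.26, Slc7a11 from -0.0085 to 0.96 and Slc1a5 from -0.38 to 0.10. In shCBX8 against shCBX7 with the covariate, Slc3a2 took -0.0212, Slc7a1 0.0274 and Slc7a11 0.17. With 1 library left out, Slc7a5 ran from -0.32 to 0.65, Slc7a11 from -0.76 to 0.33 and Slc3a2 from -0.12 to 0.17. The log2 ratio of Slc7a5 to Slc3a2 ran from -0.20 to 0.56 in shCBX8 and from -0.13 to 0.20 in shCBX7, each against shCTR, with 1 library left out.

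Library size alone, without TMM, moved the median of all genes to 0.17 in shCBX8 against shCTR, with 67.2% of calls higher instead of 51.6%, and to 0.155 in shCBX8 against shCBX7, with 67.1% instead of 53.5%. The 3 transporters passed under it and stood above that shift. With no filter the median was -0.321 in shCBX8 and -0.235 in shCBX7 against shCTR. The replicate numbers were not taken to pair the libraries. Deviations of libraries with the same number correlated at 0.202, 0.257 and 0.0749 between shCBX8 and shCTR. They correlated at -0.0783, 0.691 and 0.312 between shCBX7 and shCTR, and at 0.130 and 0.332 between shCBX8 and shCBX7. Across groups, libraries with different numbers correlated at -0.513 to 0.466. Those numbered 2 correlated at 0.257, 0.332 and 0.691 with each other, and at -0.513 to 0.0107 with other numbers. In every group library 2 had the lowest Slc38a1, the highest Slc38a2 and the highest fibroblast marker sum. With a replicate block in the fit, Slc1a5 and Slc38a2 also passed as lower in shCBX8 against shCTR. With 3 or 4 libraries a group, the low counts of Slc7a3 and the spread of Slc7a5, Slc7a11 and Slc1a5 limit what could be detected.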
